A study of Rattus norvegicus with 8 samples.

Results

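The 85 genes described here were chosen for standing apart in 1 of 8 hippocampal RNA libraries, the library labelled WKY4 (WKY replicate 4). Counts were scaled to CPM, the share of a library's total expressed in parts of 1000000. A gene was a member if its mean over the 8 libraries was at least 0.5 CPM and its log2(CPM + 0.05) in WKY replicate 4 lay at least 1.5 above the highest of the 7 other libraries, a 2.83-fold difference where the pseudocount is negligible. This difference to the highest other library is called the gap. Of 32623 genes in the table, 15531 reached the minimum mean, and the 85 members were 0.547% of these. The height of WKY replicate 4 in these genes is therefore how they were found, not a result, and it was not tested.

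The series compared the spontaneously hypertensive rat (SHR), bred for the high blood pressure it develops, with the Wistar-Kyoto rat (WKY), its usual control strain with normal blood pressure. Both groups were 32 weeks old, no treatment group is labelled, and each strain has 4 libraries of hippocampal total RNA. Whether each library is a different animal is not labelled, so the p-values reflect library-to-library spread that may be technical. Totals ran from 45048841 to 49560687 counts in SHR and from 53045139 to 53699673 in WKY, with the highest total in WKY replicate 4.

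The hippocampus is the forebrain structure best known for its part in forming memories and in spatial navigation. RNA from a dissected piece of it is a mixture from neurons, glia, vessels and whatever bordering tissue was taken with it. In such bulk libraries a higher level can come from more cells of a type or from more RNA per cell, and these cannot be told apart. The files name genes by Ensembl ID only, and 0 of the 32623 IDs could be paired with a symbol here. The members are therefore described by their levels, 2 of them by ID, and no function, position, promoter or cell type is given for any of them. The labelled tissue could not be checked against its markers for the same reason.

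WKY replicate 4 was also compared with the other WKY libraries over the genes that are not members. A chi-square of these counts, per degree of freedom, was 59.4, 87.4 and 91.0 between it and WKY replicates 1, 2 and 3, and 34.7 to 41.8 among those 3. Among the SHR libraries it was 67.9 to 82.8 for the pairs with SHR replicate 3 and 15.6 to 48.4 for the others. SHR replicate 3 thus also stood apart within its strain, though 87.4 and 91.0 lay above every pair without WKY replicate 4. The SHR totals were lower, so the values are not directly comparable between the strains. The single-library tables of WKY replicates 3 and 4 and SHR replicates 3 and 4 carry the numbers 5, 6, 4 and 6 in their headers, not those of the sample titles. Their values equal the matrix columns of the titles at all 32623 genes. Every value below that includes WKY replicate 4 rests on this 1 library, and the strain comparison was made without it.

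The same rule, applied in turn to each other library, found far fewer genes. It gave 1 gene raised in WKY replicate 1, 2 in WKY replicate 2, 0 in WKY replicate 3, and 1, 0, 6 and 0 in SHR replicates 1 to 4. The reverse rule, for genes at least 1.5 below all other libraries, gave 10 genes for WKY replicate 4, within the 7 to 22 genes of the other libraries. WKY replicate 4 thus lay among the other libraries in the number of genes standing below. Its number standing above follows from how the members were chosen, and the difference from the other libraries was not tested. A gene highest in WKY replicate 4 also cannot be counted as raised in any other library, which limits their numbers. Of the 85 genes of WKY replicate 4, 36 had a gap of at least 3, against 1 gene in WKY replicate 1, 1 in WKY replicate 2 and 0 in each of the other 5 libraries.

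**Figure D1:**
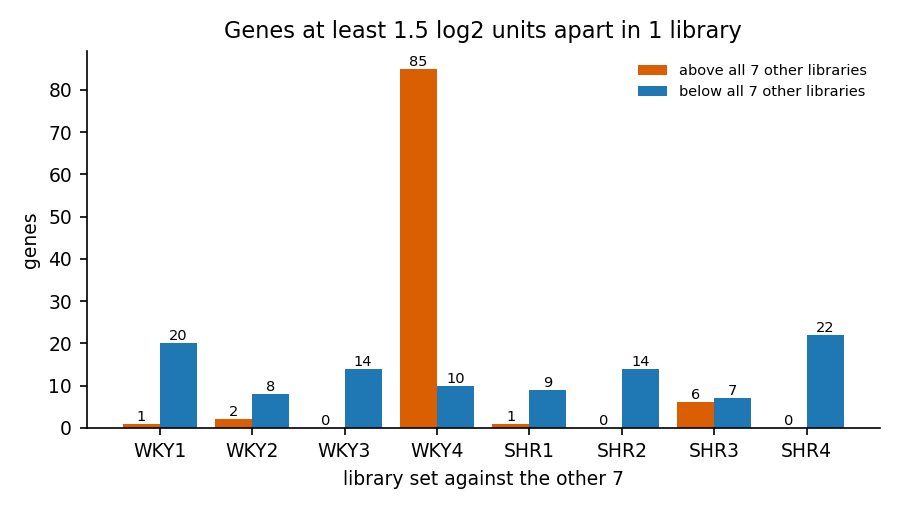
Number of genes at least 1.5 log2 units above (orange) or below (blue) all 7 other libraries, for each library in turn. WKY replicate 4 has 85 genes above and 10 below, and the other libraries have 0 to 6 above and 7 to 22 below.

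The gaps ranged from 1.51 to 7.16, with a median of 2.74. They were at least 2 in 54 members, at least 4 in 23, at least 5 in 13 and at least 6 in 5. The 3 members nearest the threshold had gaps of 1.51, 1.52 and 1.52, and the 3 genes just outside it had 1.49, 1.49 and 1.47. Within 0.1 of the threshold there were 7 members inside and 6 genes outside, so the lower end of the group has no natural edge.

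In WKY replicate 4 the members spanned 1.94 to 3276 CPM, with a median of 14.0 CPM. These are shares of counts, not levels per gene length, so they do not rank the genes by transcript number. There were 13 members at 100 CPM or more, and they held 82.3% of the members' summed CPM in that library.

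The members differed in how much of them the other 7 libraries held. In 26 members no other library reached 1 CPM, and these stood at 1.94 to 72.6 CPM in WKY replicate 4 (median 5.65 CPM). In 51 members the highest other library lay between 1 and 10 CPM, and WKY replicate 4 stood at 3.78 to 202.6 CPM (median 14.8 CPM). In the remaining 8 the highest other library held 10 CPM or more, up to 200.6 CPM, and WKY replicate 4 held at least 102.4 CPM. The group thus joins genes that were nearly missing elsewhere to genes with ample counts in every library. A count was present in all 8 libraries for 66 members, and 59 had at least 10 counts in each. The other 19 had 0 counts in at least 1 library.

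The member with the largest gap, 7.16, was listed at 0 in all 7 other libraries and at 7.08 CPM in WKY replicate 4. Set against 3 counts in the smallest of the 7 libraries (0.0666 CPM), it was 106-fold higher in WKY replicate 4. The 3 counts are a chosen stand-in for 0, so this fold depends on that choice. No other member lacked a count everywhere else.

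**Figure D2:**
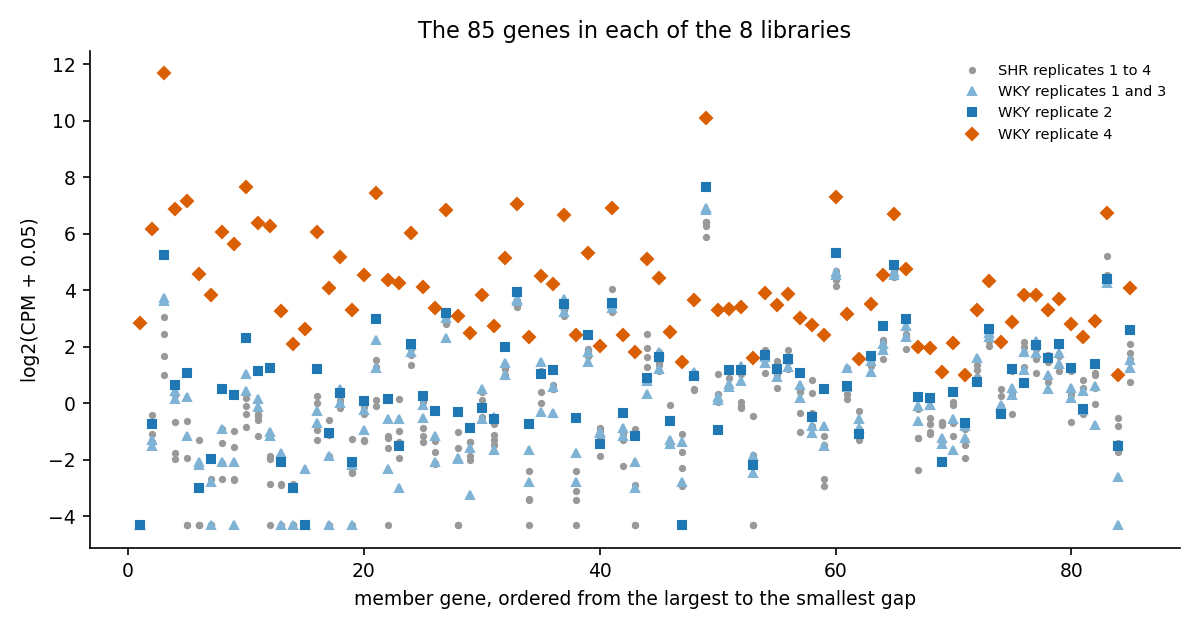
Level of each of the 85 members, as log2(CPM + 0.05), in the 8 libraries, ordered by the gap. WKY replicate 4 (orange diamonds) lies above every other library by the choice of genes, and WKY replicate 2 (dark blue squares) is often the next highest.

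ENSRNOG00000016275 took the most counts of any member in WKY replicate 4. It stood at 12.2, 37.7 and 13.1 CPM in WKY replicates 1 to 3, at 1.95, 8.33, 5.35 and 3.15 CPM in SHR replicates 1 to 4, and at 3276 CPM in WKY replicate 4. WKY replicate 2 was the next highest, 86.9-fold below WKY replicate 4, and every SHR library lay below every WKY library. This gene alone made up 46.0% of the members' summed CPM in WKY replicate 4.

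ENSRNOG00000004089 took the second most counts. It stood at 120.6, 200.6 and 114.1 CPM in WKY replicates 1 to 3, at 86.0, 85.5, 59.2 and 77.0 CPM in SHR replicates 1 to 4, and at 1108 CPM in WKY replicate 4. The order was as in the first gene, with WKY replicate 2 second, the other WKY libraries next and all SHR libraries lowest, but WKY replicate 4 was only 5.52-fold above WKY replicate 2. Its gap, 2.46, was near the middle of the members.

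Summed over all 85 members, WKY replicates 1 to 3 held 334.6, 516.5 and 334.4 CPM, SHR replicates 1 to 4 held 296.7, 299.5, 312.8 and 258.1 CPM, and WKY replicate 4 held 7118 CPM. The sum in WKY replicate 4 was 13.8 times that in WKY replicate 2. Without ENSRNOG00000016275 the sum in WKY replicate 4 was 3842 CPM, 8.02 times that in WKY replicate 2 (478.8 CPM). The 4 SHR sums lay below the 3 other WKY sums in both versions. That order rested on ENSRNOG00000004089, since without both genes WKY replicates 1 to 3 held 201.8, 278.1 and 207.2 CPM and SHR replicates 1 to 4 held 208.8, 205.6, 248.2 and 177.9 CPM, which overlap.

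**Figure D3:**
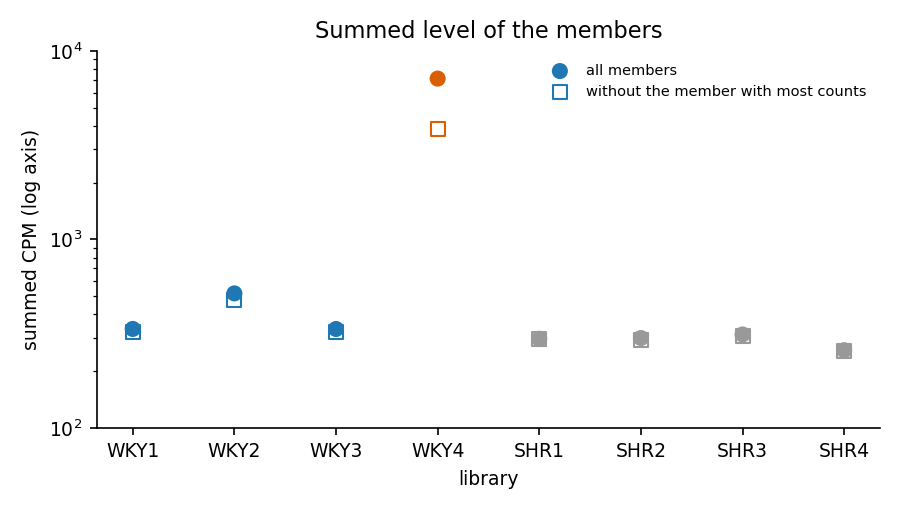
Summed CPM of the 85 members in each library on a log axis, with all members (filled circles) and without ENSRNOG00000016275 (open squares). WKY replicate 4 is at 7118 and 3842 CPM, and the other libraries lie between 254.9 and 516.5 CPM.

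The rule did not use the order of the 7 other libraries among themselves, and there WKY replicate 2 stood out. It was the highest of the 7 in 40 of the 84 members with a count in any of them (47.6%), against 14.4% of the 15446 other genes with a mean of at least 0.5 CPM. SHR replicate 3, most often the highest over those other genes (25.6%), was the highest in 16 members. WKY replicate 2 lay above both WKY replicates 1 and 3 in 58 of 85 members (68.2%), against 28.3% of the other genes. Of the 85 members, 29 reached the minimum mean only through WKY replicate 4. Over the 56 members with a mean of at least 0.5 CPM in the 7 libraries themselves, WKY replicate 2 was the highest in 28 (50%), against 14.5% of the other genes that met the same minimum. These shares are descriptions over genes that share the same libraries.

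The height of WKY replicate 2 was greatest where the gap was large, although a high WKY replicate 2 makes the gap smaller by construction. Its median log2 distance above the mean of WKY replicates 1 and 3 was 1.18 in the 23 members with a gap of at least 4 and 0.53 in the 13 with a gap of 3 to 4. It was 0.16 in the 18 with a gap of 2 to 3, 0.37 in the 31 with a gap of 1.5 to 2, and -0.02 in the other genes. Of the 36 members with a gap of at least 3, 18 reached the minimum mean only through WKY replicate 4, and the other 18 had a median of 0.73. At the largest gaps 3 of the 4 SHR libraries lay below the mean of the 7. A high WKY replicate 2 raises that mean, which lowers the deviations of the other libraries by construction. In the 23 members with a gap of at least 4, the median deviations from the mean of the 7 libraries were -0.59 in SHR replicates 1 and 4, -0.28 in SHR replicate 3 and 0.19 in SHR replicate 2. WKY replicates 1 and 3 were at 0.32 and 0.30 there, and WKY replicate 2 at 1.12. Of these 23 members, 13 reached the minimum mean only through WKY replicate 4, so their values in the 7 libraries are near 0. In the 18 with a gap of at least 3 that reached it without that library, SHR replicates 1 to 4 were at -0.25, 0.06, -0.14 and -0.35. WKY replicates 1 to 3 were at 0.04, 0.74 and 0.23 in those 18.

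**Figure D4:**
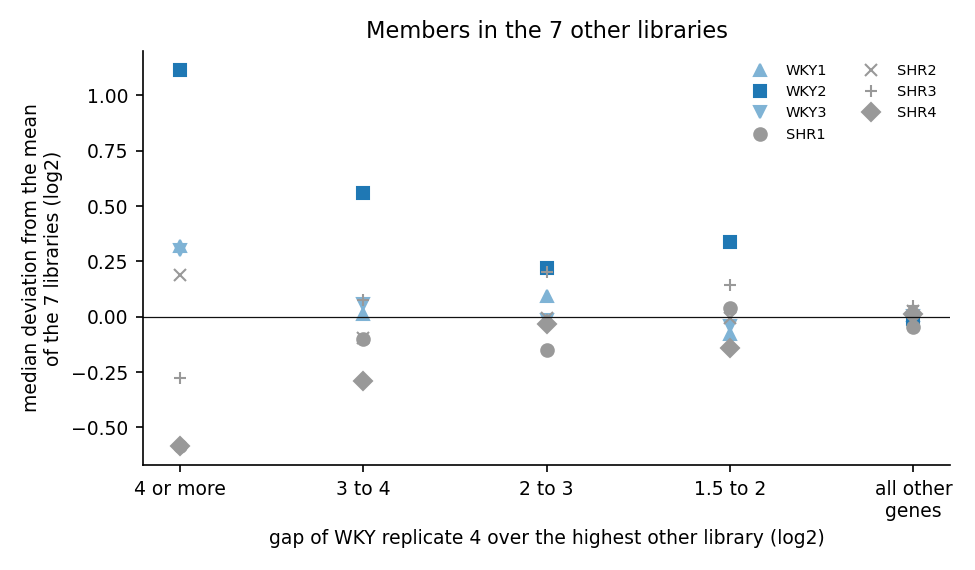
Median deviation (log2) of each of the 7 other libraries from their own mean, for members grouped by gap and for all other genes with a mean of at least 0.5 CPM. WKY replicate 2 has the highest median in every group of members, from 1.12 at a gap of 4 or more to 0.22 at 2 to 3. At 2 to 3 SHR replicate 3 is close, at 0.20, and is the highest library in 6 of 18 members, against 4 for WKY replicate 2. All 7 libraries are within 0.06 of 0 in the other genes. Of the 23 members with a gap of 4 or more, 13 reached this mean only through WKY replicate 4.

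A gap of at least 3 keeps WKY replicate 2 far below WKY replicate 4, so its excess was small by the choice of genes. The shares are given as a description only. In the 36 members with a gap of at least 3, the excess of WKY replicate 2 over the mean of WKY replicates 1 and 3 had a median of 1.60% of the excess of WKY replicate 4. It was above 0 in 31 of the 36, with quartiles of 0.690% and 2.48% and a highest value of 7.54%. In ENSRNOG00000016275 it was 0.768%, and in ENSRNOG00000004089, whose gap is under 3, it was 8.41%.

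The members were also compared by how they varied together over the 7 other libraries. The median correlation between 2 members was 0.36 among 32 members with a gap of at least 3, 0.11 among 49 with a smaller gap, and 0.02 among 15524 genes with a mean of at least 0.5 CPM. Among the 18 members with a gap of at least 3 that reached this mean in the 7 libraries alone it was 0.45, and it was 0.02 over the 15500 genes that did so. Each correlation is over log2(CPM + 0.5) in the same 7 libraries, for genes with a count in at least 4 of them, and is a description of these libraries. Some members may not be separate measurements. In 3 pairs of members the counts differed by no more than 25% or 5 counts in every library, so reads shared between similar or overlapping genes cannot be told apart from genes that vary together.

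The strain comparison for these genes was made on the 7 libraries other than WKY replicate 4, with 4 SHR and 3 WKY libraries. It asks whether the members differed between the strains apart from the library that defined them. Both members named above were lower in SHR. Of the 85 members 75 passed the filter on low counts, and edgeR's quasi-likelihood test called 2 of them, both lower in SHR, at an adjusted p under 0.05. Over all 17029 genes tested it called 2.69%, with 1.53% lower in SHR and 1.16% higher. A count of 2 in 75 is near that background. At an unadjusted p under 0.05 there were 12 of the 75 members (16%), 11 of them lower in SHR, where 17.2% of all genes tested were under that p and 8.92% were so and lower in SHR. With WKY replicate 4 put back, which lets the rule's own library into the contrast, edgeR called 0 members (44 at an unadjusted p under 0.05, as were 12.1% of all genes) and 0.0356% of all genes tested, and nothing is read from these counts.

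ENSRNOG00000016275 averaged 4.63 ± 2.70 CPM over SHR (SD, n = 4) against 21.2 ± 14.7 CPM in WKY replicates 1 to 3 (SD, n = 3), after TMM scaling. The fitted log2 difference came to -2.19 ± 0.50 (SE), with an adjusted p = 0.0496 in edgeR. For ENSRNOG00000004089 the means were 76.9 ± 13.9 CPM in the 4 SHR libraries and 146.1 ± 49.3 CPM in the 3 WKY libraries. The difference there was -0.93 ± 0.21 on the log2 scale, with an adjusted p = 0.0474 in edgeR. Both calls lie at the threshold. Without WKY replicate 2 the log2 fold changes were -1.45 and -0.61 (edgeR, adjusted p = 0.237 and 0.167), and edgeR called 0 members, with 6.67% of the members tested at an unadjusted p under 0.05 against 11% of all genes. Leaving out WKY replicate 1 or SHR replicate 1, 2 or 4 also gave 0 members in edgeR. In those fits 18.4%, 12.3%, 16.2% and 11% of the members tested had an unadjusted p under 0.05, against 16.1%, 16.6%, 14.4% and 14.7% of all genes. Without SHR replicate 3 there was 1 call, ENSRNOG00000004089 (edgeR, adjusted p = 0.0461), where 662 of 16851 genes were called. Without WKY replicate 3 there was also 1 call, at neither of these genes, where 217 of 17370 genes were called. There 14.9% and 15.4% of members tested had an unadjusted p under 0.05, against 19.9% and 14.7% of all genes. DESeq2 called 6 of 75 members, 5 of them lower and 1 higher in SHR, and 1216 of 17029 genes. The count of 6 is near that background.

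Most members tested were lower in SHR in these 7 libraries without passing the test. The fitted log2 fold change was below 0 in 51 of 75 (median -0.22, range -3.03 to 1.63), against 50.1% of all genes tested (median 0.00). Among the 28 tested members with a gap of at least 3 it was below 0 in 23, with a median of -0.56. Among the 47 with a smaller gap it was below 0 in 28, with a median of -0.06. Much of this rests on WKY replicate 2. Without it 40 of 75 members tested were below 0 (median -0.08), so little of the lean over all members remained. Among the 28 with a gap of at least 3, 20 were below 0 without it (median -0.18). Only 56 members had a mean of at least 0.5 CPM over the 7 libraries, 18 of them with a gap of at least 3. Some of the 75, and of the 28, thus reached that mean only through WKY replicate 4. In edgeR on all 7 libraries, limited to genes with at least 1 CPM in 3 of them, 29 of 44 members were below 0 (median -0.20). With a gap of at least 3, 10 of 12 were (median -0.23). These counts are over genes that share the same libraries. The ranges of SHR and of WKY replicates 1 to 3 were separate in 8 of the 75 members, and in 17.2% of all genes tested. Of those 8, 7 were lower in SHR and 1 was higher, where the shares of all genes were 9.08% and 8.12%. The count of 7 in 75 is near its background.

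**Figure D5:**
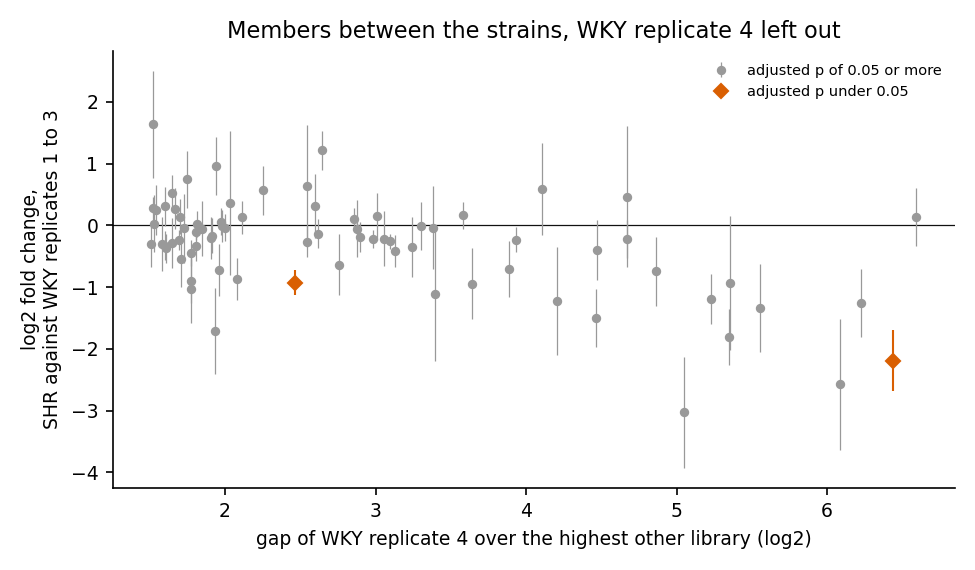
Log2 fold change of SHR against WKY replicates 1 to 3 (points, bars are SE) for the 75 members tested, plotted against the gap. The 2 called members (orange) are at -2.19 and -0.93, and 23 of 28 members with a gap of at least 3 lie below 0. Only 18 members with a gap of at least 3 had a mean of at least 0.5 CPM over the 7 libraries.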

How the data were processed

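The authors deposited raw counts per gene, in 1 matrix and 8 single-library tables with equal values. HISAT2 2.0.4, StringTie 1.3.4d and cutadapt 1.9 are listed, with the rn6 build, per the submitters' processing notes. The annotation release and strand setting are not given in the sources. Genes with exactly 4 counts outnumbered those with exactly 3 in all 8 libraries, so low counts were not treated as single fragments. The lowest chi-square per degree of freedom between libraries of a strain was 15.5, so none were duplicates.

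The strains were compared in R 4.3.3 with the quasi-likelihood F test of edgeR 4.0.16, TMM scaling, filterByExpr and Benjamini-Hochberg adjustment over all genes tested. The standard error is the log2 fold change divided by the square root of F. Alternatives were RLE scaling, other filters, DESeq2 1.42.0, limma-voom (limma 3.58.1), a replicate block, all 8 libraries, each library left out, and other settings of the member rule. Leaving the members out of the chi-square, leaving the 2 named genes out of the sums, and the minimum mean over 7 libraries were chosen after seeing the data. The 40 planned marker lists could not be matched, so 0 were used. The naming rule took members with the largest gaps, the most counts in WKY replicate 4, or a call, with at most 2 IDs where symbols are missing. The members and lists were chosen with earlier results of these data known.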

Additional observations from a re-analysis of the deposited data

Results flagged for a closer look

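In 14 sets of 4 libraries, each searched for 1 library far from the other 3, there were 6 such cases. Chance alone gives about 1 in 20. The sets come from the same libraries and are not independent, and 5 of the 6 follow from how the members were chosen. In the WKY libraries these were the summed CPM of the members (7118 in WKY replicate 4), the CPM of ENSRNOG00000016275 (3276) and of ENSRNOG00000004089 (1108), the CPM of the member absent elsewhere (7.08), and the number of genes above all other libraries (85). Among the SHR libraries, the number of genes above all other libraries was 6 in SHR replicate 3 and 0 or 1 in the others. This case lies at the threshold. Its distance to the nearest library over the range was 0.833, against a critical value of 0.829.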

How the results depend on the processing

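Other settings of the member rule gave 138 genes at a gap of 1, 54 at a gap of 2 and 186 with no minimum mean. A pseudocount of 0.5 CPM, a mean of at least 1 CPM and TMM-scaled CPM gave 71, 71 and 83 genes, all among the 85. Against 458 genes and 2 members called without WKY replicate 4, edgeR with no low-count filter called 302 genes and 0 members (16.7% of members tested at an unadjusted p under 0.05, against 14.3% of all genes). DESeq2 called 1216 and 6 (14.7% unadjusted, against 18%), and limma-voom 436 and 0 (18.7% unadjusted, against 17.8%). RLE scaling gave 449 and 1 (16% unadjusted, against 17.2%), and all 8 libraries 6 and 0. Leaving out 1 more library gave 127 to 662 genes and 0 to 1 members. With the replicate block 123 genes and 1 member were called (12% of members unadjusted, against 11.3% of all genes). Libraries with the same title number, 1 to 3, did not vary together (correlations -0.09 to -0.03), so these numbers were not taken as pairs. The differing header numbers of replicates 3 and 4 were not tested as pairs. The cause of these differences was not tested. Both named genes were lower in SHR in all of these fits, which reuse the same libraries. With all 8 libraries that direction follows from the rule. Counts near 0 limit the gap of the 26 members under 1 CPM elsewhere.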
